A study of Mus musculus with 8 samples.

Results

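Peaks of Chd7 and Chd8 were examined at 6 genes of committed oligodendrocyte precursors, Gpr17, Bcas1, Enpp6, Itpr2, Neu4 and Fyn, out of 21887 protein-coding genes of the mouse. The genes were chosen by name, with earlier results of these data known. Every peak of the 8 deposited lists was collected in 3 zones on mm10: within 1 kb of a gene end, in the gene body, and in a window that adds 50 kb on both sides. The libraries came from O4-positive cells sorted magnetically from the cortex and corpus callosum of wild-type mice at postnatal day 7, which the labels call OPCs (oligodendrocyte precursor cells). Chromatin immunoprecipitation and sequencing (ChIP-seq) gave 2 Chd7 libraries and 1 Chd8 library, set against 3 inputs and 2 mocks with rabbit IgG, 1 of which served both Chd7 replicate 2 and Chd8. No treatment, genotype or time was varied, so the comparisons are between antibodies and their controls and between these genes and all others. The Chd7 antibody was from Cell Signaling and the Chd8 antibody from Bethyl, and the labels do not tell whether the libraries came from separate animals.

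Gpr17 is an orphan receptor of the P2Y and cysteinyl leukotriene receptor branch that appears as precursors commit to differentiation and is lost again in myelinating cells. Bcas1 and Enpp6, a choline-specific phosphodiesterase, mark newly forming oligodendrocytes, Itpr2 releases calcium from the endoplasmic reticulum on binding inositol trisphosphate, Neu4 is a sialidase of precursors, and Fyn is a Src-family kinase that carries axonal and matrix signals into process outgrowth and myelin protein translation. Chd7 and Chd8 are ATP-dependent remodelers that move nucleosomes at promoters and enhancers.

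Chd8 lay at 5 of the 6 genes, and Enpp6 was the exception. The Chd8 list had a peak at an end of Gpr17, Bcas1, Itpr2, Neu4 and Fyn (83.3%, 95% exact binomial interval 35.9 to 99.6), against 41.0% of all protein-coding genes. A Chd7 region found in both libraries, meaning overlapping peaks of replicates 1 and 2, lay at an end of Gpr17 and of Fyn (33.3%, 4.33 to 77.7), against 4.83% of all genes. With 6 genes both intervals include the share of all genes. Chd7 replicate 1 alone had a peak at an end of Gpr17, Neu4 and Fyn, against 10.4% of all genes, and replicate 2 at an end of Gpr17, Itpr2 and Fyn, against 17.0%. Gpr17 and Fyn were thus the genes with all 3 ChIP lists at an end, as were 5.35% of all genes. Inputs 1 and 2 had a peak at an end of Fyn, and input 3 at an end of Fyn and Bcas1, against 21.9%, 28.4% and 45.2% of all genes. The mocks had none at the 6 genes, against 0.0183% and 0.0137% of all genes. At Gpr17 these ChIP peaks met no input peak, whereas at Fyn all 3 inputs had a peak at the same place. Within the windows lay 30 Chd8 peaks, 11 peaks of Chd7 replicate 1 and 5 of Chd7 replicate 2, beside 21, 51 and 48 peaks of inputs 1, 2 and 3 and no peak of either mock. Chd8 lay in 5 of the 6 windows (71.5% over all genes), Chd7 replicate 1 in those of Gpr17, Bcas1, Neu4 and Fyn (37.6%), Chd7 replicate 2 in those of Gpr17, Itpr2 and Fyn (47.8%), and a reproducible region in those of Gpr17 and Fyn (16.8%).

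The peak lists hold no read counts and Chd8 had 1 library, so depth is unknown, no replicate error can be given for Chd8, and no test was run; intervals cover counting over genes only. The lists held 5282 and 6292 peaks for Chd7, 18415 for Chd8, 91628 to 178478 for the inputs and 89 and 98 for the mocks, and 0.353% to 1.21% of ChIP peaks touched a mock and were removed. Each peak carries the authors' fold over the caller's local background, a value on the scale of its own list that is not comparable between libraries. The sorted identity cannot be read from peaks, which give no expression. As occupancy, Chd8 lay at an end of 4 of 6 OPC markers (interval 22.3% to 95.7%), 3 of 6 neuron markers (11.8 to 88.2) and 2 of 6 astrocyte markers (4.33 to 77.7). It lay at none of the 5 microglia or 5 endothelial markers (0 to 52.2 for each list). All these intervals include the 41.0% of all protein-coding genes, so the counts do not rank the cell types. Input 3 had a peak at an end of 4 OPC, 5 neuron and 2 astrocyte markers, no fewer than Chd8 in each list. It also had one at 1 microglia and 2 endothelial markers, against 45.2% of all genes. A reproducible Chd7 region lay at none of these 28 genes, against 4.83% of all genes. For that region the intervals reach 45.9% in the lists of 6 and 52.2% in the lists of 5.

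Sequences around an annotated start were at hand for 4 of the genes, and ChIP peaks covered bases of 3 of these windows. RefSeq promoter windows (GRCm38.p6, 250 bases before to 50 after a start) are printed 5′ to 3′ on the gene's strand, with the bases under a Chd8 peak in capitals. They are given because these windows differ in composition and in cover. Gpr17 and Bcas1 have no window here.
Neu4, chr1:94020243-94020542, plus strand: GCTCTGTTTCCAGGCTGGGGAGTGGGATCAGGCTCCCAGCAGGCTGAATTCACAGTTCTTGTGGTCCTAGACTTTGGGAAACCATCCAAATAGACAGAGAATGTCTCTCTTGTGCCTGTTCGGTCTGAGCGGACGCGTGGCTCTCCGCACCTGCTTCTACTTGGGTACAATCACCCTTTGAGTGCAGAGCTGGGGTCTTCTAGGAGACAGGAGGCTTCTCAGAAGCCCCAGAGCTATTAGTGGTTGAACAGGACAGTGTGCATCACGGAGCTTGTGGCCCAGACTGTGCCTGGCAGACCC
Fyn, chr10:39369549-39369848, plus strand: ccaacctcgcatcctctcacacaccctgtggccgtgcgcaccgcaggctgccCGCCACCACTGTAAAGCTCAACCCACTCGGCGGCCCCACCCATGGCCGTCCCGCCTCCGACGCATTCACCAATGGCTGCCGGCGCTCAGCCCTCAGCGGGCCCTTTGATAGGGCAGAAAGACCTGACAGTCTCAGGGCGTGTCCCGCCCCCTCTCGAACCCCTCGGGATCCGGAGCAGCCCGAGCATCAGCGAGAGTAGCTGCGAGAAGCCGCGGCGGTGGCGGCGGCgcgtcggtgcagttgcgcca
Itpr2, chr6:146502174-146502473, minus strand: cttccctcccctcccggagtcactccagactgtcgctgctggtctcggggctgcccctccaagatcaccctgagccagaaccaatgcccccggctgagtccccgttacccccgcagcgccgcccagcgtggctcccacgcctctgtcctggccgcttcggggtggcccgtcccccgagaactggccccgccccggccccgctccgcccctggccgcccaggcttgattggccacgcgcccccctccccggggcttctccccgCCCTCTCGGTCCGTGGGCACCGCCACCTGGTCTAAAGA
Enpp6, chr8:46986637-46986936, plus strand: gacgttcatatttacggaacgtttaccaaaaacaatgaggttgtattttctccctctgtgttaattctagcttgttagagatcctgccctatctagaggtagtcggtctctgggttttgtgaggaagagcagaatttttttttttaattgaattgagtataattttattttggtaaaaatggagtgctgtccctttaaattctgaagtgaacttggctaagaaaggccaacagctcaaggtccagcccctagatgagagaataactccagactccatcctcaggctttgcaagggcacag
The Neu4 window lay wholly under Chd8, the Fyn window for 228 bases, the Itpr2 window for 38 bases at its downstream edge, and the Enpp6 window not at all. Chd7 replicate 2 covered 300 bases of the Fyn window and 132 of the Itpr2 window, and replicate 1 covered 145 of the Fyn window.

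The covered starts were of different kinds. The Fyn and Itpr2 windows were rich in CpG, with 31 and 26 CpG and an observed over expected ratio of 0.89 and 0.70, while Neu4 and Enpp6 had 6 and 4 CpG and ratios of 0.26 and 0.33, against a median of 0.57 over 21263 windows of protein-coding genes. Over all such windows Chd8 touched 61.1% of those with a ratio of at least 0.6 and 11.4% of those below it. Neu4 thus carried Chd8 at a start of the class that Chd8 touched less often, and Enpp6, of the same class, carried none. On both strands, GGGCGG occurred 5 times in the Itpr2 window and 1 time in the Fyn window (46.2% of all windows held it), and CCAAT occurred 2 times and 1 time (38.2%). CAGCTG (15.6%) and ACAAAG (16.8%) occurred in none of the 4 windows.

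At Gpr17, on chromosome 18 from 31942999 to 31949890, all 3 ChIP libraries met at the right end. Chd7 replicate 1 had a peak of fold 4.95 from 31949637 to 31950256, Chd7 replicate 2 one of fold 3.48 from 31950033 to 31950423, and Chd8 one of fold 5.94 from 31949649 to 31950893. These peaks ranked above 71.9%, 64.6% and 90.2% of their own lists. Both Chd7 peaks overlapped by 224 bp, and the Chd8 peak, 1245 bp wide, covered 608 bp of the first and the whole 391 bp of the second. No input and no mock had a peak there. Genes with a reproducible Chd7 region and Chd8 at an end, and no input peak at either end, numbered 60 (0.274% of all genes), whereas 418 (1.91%) had a peak of all 3 inputs. The files give no strand for Gpr17, so its right end is not called start or finish here.

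A second Gpr17 site lay beyond that end. Chd8 had its highest fold of the window, 6.47, from 31953345 to 31954069, above 94.2% of its list, and Chd7 replicate 1 had fold 4.92 from 31953592 to 31953927, above 70.2% of its list. Chd7 replicate 2 had no peak there, and no input touched the site. Its centre was 3.82 kb past the right end, inside Lims2, which encodes a LIM-domain adaptor of focal adhesions and whose body (31922293 to 31958620) spans Gpr17 entirely. The peaks described for Gpr17 and this site therefore cannot be assigned to 1 of the 2 genes, and neither end of Lims2 itself carried a ChIP peak.

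The remaining Chd8 peaks at Gpr17 were weak. Inside the gene 3 peaks, and just left of it 1 more, had fold 3.81, the lowest value of the Chd8 list, which 1896 Chd8 peaks (10.3%) share, and a 109 bp peak near the right end had 4.21. Chd7 had no peak at these 5 places. Input 3 had 2 peaks in the gene body, neither touching a ChIP peak. Counting all, Gpr17 with 1 kb on both sides held 5 Chd8 peaks, which 3 of 5843 genes of 0.5 to 2 times its length reached (0.0513%), Gpr17 among them. Above the lowest fold it held 2, which 7.26% of those genes reached. Among those genes 12.1% had a peak of Chd7 replicate 1, 19.3% one of replicate 2 and 5.08% a reproducible region in the same span. In the left flank a Chd7 replicate 2 peak of fold 3.35 coincided with peaks of inputs 2 and 3 at an end of the noncoding gene Gm46619. Farther left, an end of Sft2d3, a gene of vesicle transport, had a Chd7 replicate 1 peak of 4.17, which overlapped a Chd8 peak of 4.05 by 3 bp and ended 50 bp from a Chd8 peak of 4.11 that touched input 3.

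**Figure D1:**
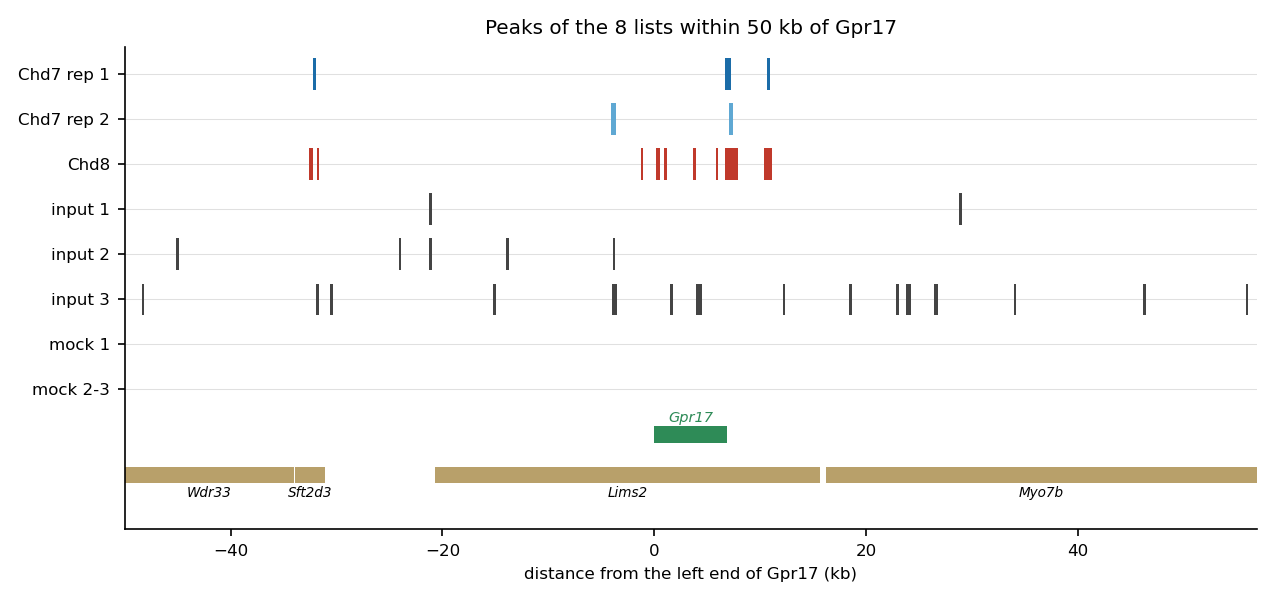
Peaks of each list (bars, widened where needed to be visible) by distance from the left end of Gpr17 in kb, with protein-coding genes below. The 3 ChIP lists meet at the right end of Gpr17 and the inputs have no peak there, and Gpr17 lies inside Lims2.

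Neu4, on chromosome 1 from 94020493 to 94028334, had Chd8 at both ends, as did Gpr17, whose left end had only peaks at the lowest fold. Over all genes 2.33% had Chd8 at both ends, as did 2.56% of genes of 0.5 to 2 times the length of Neu4 and 2.45% for the length of Gpr17. The peak at its start, from 94019883 to 94020601, had fold 6.10 and ranked above 91.7% of the Chd8 list, and neither Chd7 library had a peak there. A weaker peak of the lowest fold, 3.81, followed from 94021169. At the far end Chd8 had fold 5.61 from 94027532 to 94028074, and Chd7 replicate 1 had a 118 bp peak inside it at the lowest fold of its own list, 4.15. Chd7 replicate 2 had no peak in the window, its nearest being 217 kb from the gene. Another Chd8 peak of fold 5.69 lay 6.94 kb beyond the gene and touched a peak of input 3, while no input touched the others. The 3 Chd8 peaks in the gene with 1 kb were reached by 1.72% of genes of similar length, the 2 above the lowest fold by 7.59%, and a peak of Chd7 replicate 1 by 12.5%.

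Bcas1, on chromosome 2 from 170343973 to 170427911, differed in having its stronger peaks deep in the body. Its left end had a Chd8 peak of fold 4.07, above 25.5% of the list, with no Chd7. From 57.6 to 62.6 kb inside that end stood 3 Chd8 peaks of fold 5.06, 4.47 and 5.35, and Chd7 replicate 1 overlapped the last 2 of them with folds of 6.35 and 4.24. The Chd7 peak of 6.35, from 170403858 to 170404267, ranked above 98.2% of its list, and 91 of 5218 peaks were higher. It lay wholly inside the 1076 bp Chd8 peak. Chd7 replicate 2 had no peak in the window, its nearest being 212 kb from the gene, so none of these sites recurred between the Chd7 libraries. No input peak touched any of the 3 body sites or the end peak. The 4 Chd8 peaks in the gene with 1 kb were reached by 4.51% of genes of 0.5 to 2 times its length (3.40% without peaks at the lowest fold, of which Bcas1 has none), and 2 peaks of Chd7 replicate 1 by 4.24%. The remaining Chd7 replicate 1 peak of the window, at the lowest fold of 4.15, lay at an end of the noncoding gene Gm34608.

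Fyn, on chromosome 10 from 39369743 to 39565381, held the most Chd8 and Chd7 peaks in its body. At its start Chd7 replicate 1 had fold 4.43 from 39369654 to 39369798, Chd7 replicate 2 had 3.37 from 39369538 to 39369904 and Chd8 had 4.61 from 39369601 to 39369828. Inputs 1, 2 and 3 each had a peak there too, of folds 3.56, 4.21 and 3.55 on the scales of their own lists. These ChIP peaks ranked above 35.3%, 53.6% and 56.9% of their lists. An end of the noncoding gene Gm31616 lies within 1 kb of the Fyn start. Because every input had a peak at the Fyn start, the part of that signal in the ChIP peaks was not tested.

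Away from its start, Fyn had a Chd8 peak of fold 6.65, the highest of the 30 in the 6 windows. It ran from 39389145 to 39389963, 19.8 kb inside the gene, ranked above 95.1% of the list and contained a Chd7 replicate 1 peak of 4.42, with no input peak. Farther in, Chd8 and Chd7 replicate 1 overlapped by 301 bp at 132 kb (folds 4.35 and 4.25), where input 3 touched the Chd8 peak but not the Chd7 peak. Elsewhere the Chd7 peaks lay beside a Chd8 peak and not on it. A Chd7 replicate 1 peak of 4.40 ended 352 bp from a Chd8 peak of 4.45, and the Chd7 replicate 2 peak of 3.38 began 32 bp from a Chd8 peak of 3.81. In all, 8 Chd8 peaks touched Fyn with 1 kb, a number that 1.32% of genes of 0.5 to 2 times its length reached, and the 7 above the lowest fold were reached by 1.46%. For Chd7, 4 peaks of replicate 1 were reached by 0.986% 2 peaks of replicate 2 by 9.07% and a reproducible region by 9.82%. Removing peaks that touched an input left 5 Chd8 peaks in the Fyn window and no ChIP peak at its start.

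Itpr2, the longest of the genes at 394 kb, on chromosome 6 from 146108299 to 146502258, had 5 Chd8 peaks, 1 of them at its start. At its start, which is its right end, Chd8 had fold 4.75 from 146501484 to 146502211 and Chd7 replicate 2 had 3.45 from 146501653 to 146502305, above 62.8% and 62.3% of their lists, with 559 bp shared and no input peak. Chd7 replicate 1 had none within 140 kb of the gene. Between 63.5 and 43.6 kb from that start 3 further Chd8 peaks had folds of 5.21, 5.00 and 5.00, and a peak of 3.92 lay 28.5 kb from the opposite end, all without Chd7 or input. The 5 Chd8 peaks were reached by 14.1% of genes of 0.5 to 2 times its length (10.1% without peaks at the lowest fold, of which Itpr2 has none), and a peak of Chd7 replicate 2 by 43.8%. Its window of 494 kb held 10.1 Chd8 peaks per Mb, against 84.2 for the 107 kb window of Gpr17. Over the windows of all genes, overlapping ones each counted in full, the value was 15.0. Windows of unlike length are not matched in these densities. The 5 Chd8 peaks in the Itpr2 window were reached by 22.2% of genes of 0.5 to 2 times its length.

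Enpp6, on chromosome 8 from 46939197 to 47096762, had no peak of any ChIP list in its window. Its annotated start in the promoter table lies 47690 bp inside the left boundary, and that start had no peak either. The nearest peaks stood 66.8 kb away for Chd7 replicate 1, 192 kb for Chd7 replicate 2 and 145 kb for Chd8. Inputs 1, 2 and 3 had 3, 8 and 6 peaks in the same window. Genes of 0.5 to 2 times its length had an equally empty window in 13.2% of cases, and 25.6% of all genes did. With depth unknown, a list without a peak does not show that the remodelers were absent.

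**Figure D2:**
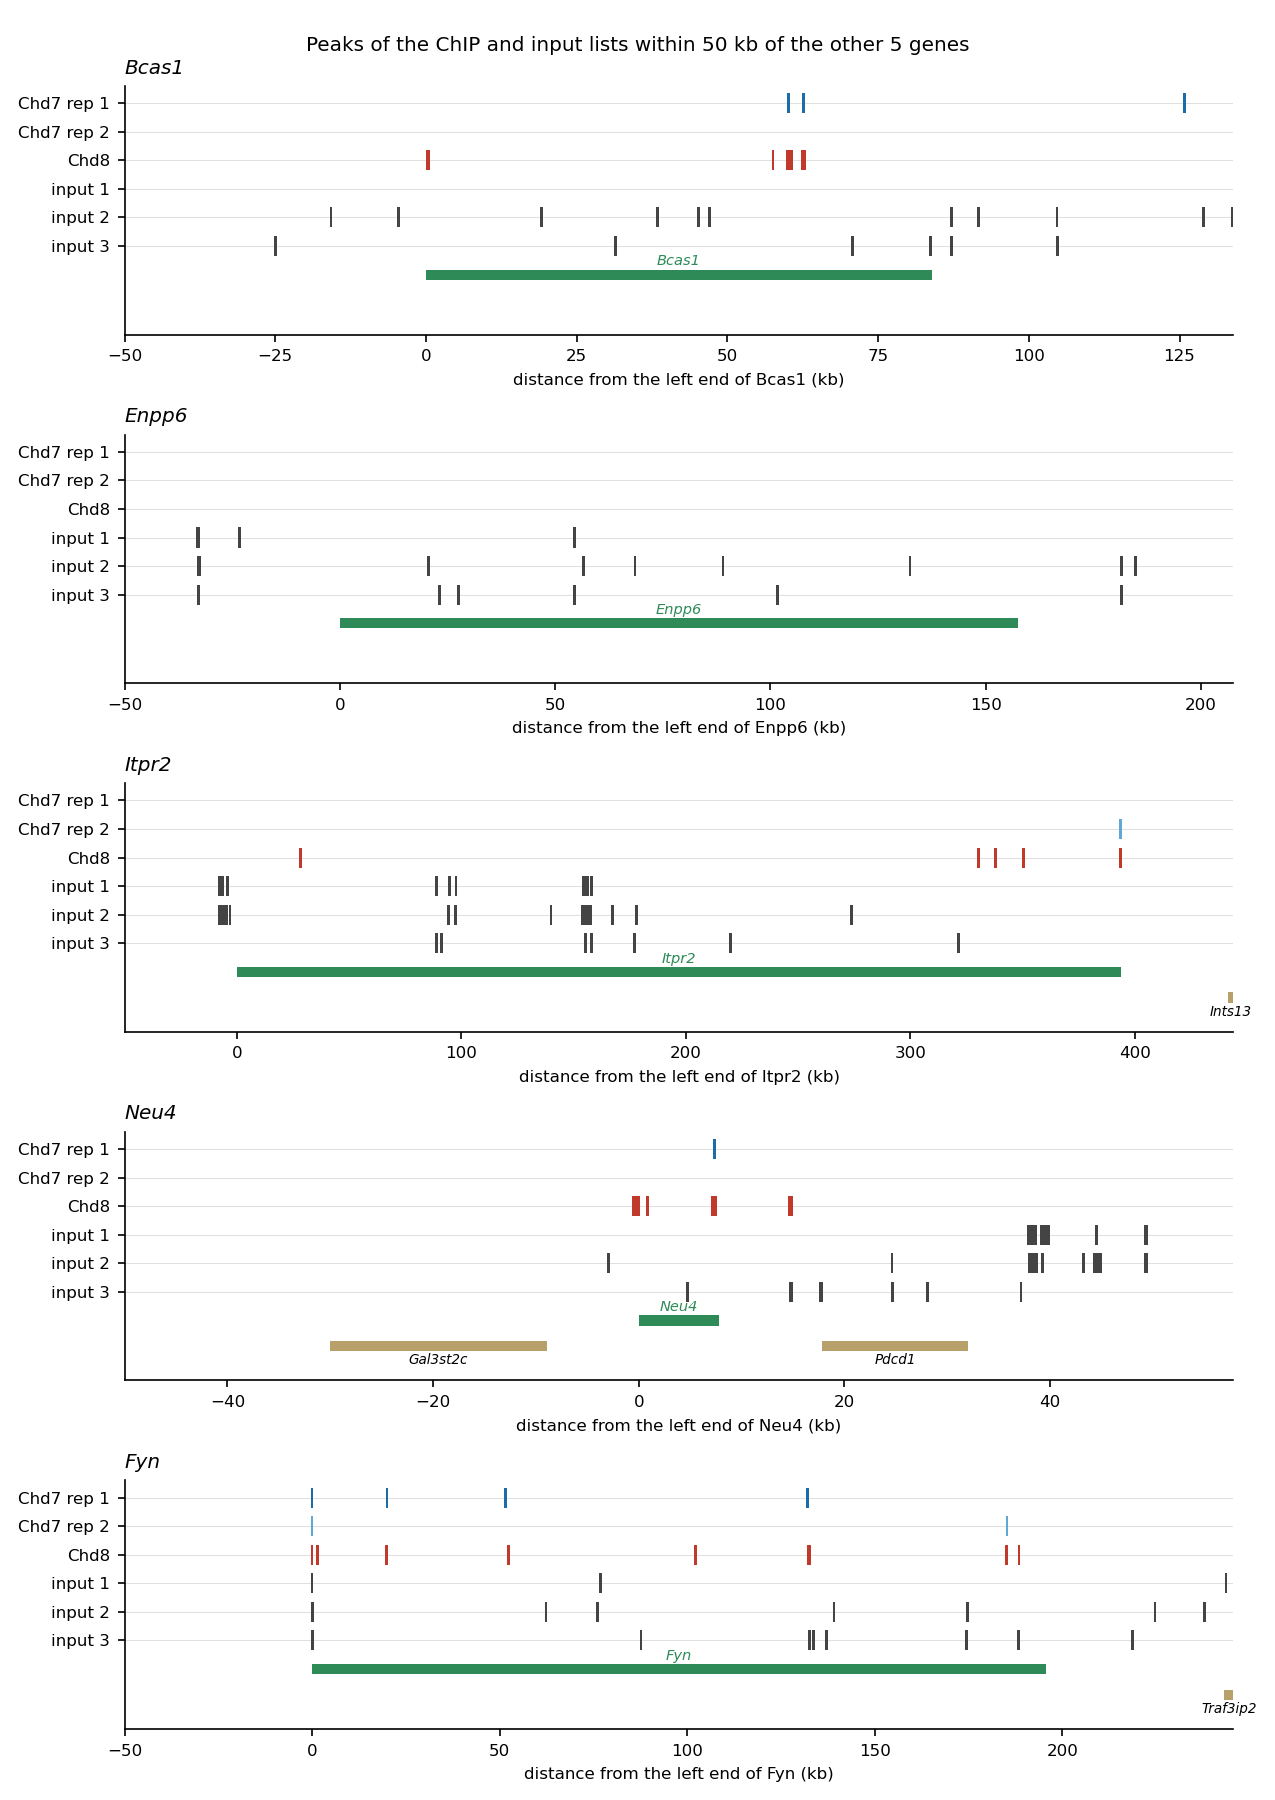
Peaks of the ChIP and input lists (bars, widened where needed to be visible) by distance from the left end of each gene in kb, with protein-coding genes below. Bcas1 has its cluster at 57.6 to 62.6 kb, Enpp6 has no ChIP peak, and at the left end of Fyn the 3 ChIP and 3 input lists coincide.

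Across the 6 windows the sites fell into a few kinds. Of the 30 Chd8 peaks, 10 touched an end of 1 of the 6 genes, 1 an end of Sft2d3, 15 lay elsewhere in the bodies and 4 in the flanks. Chd8 folds ranged from 3.81 to 6.65 with a median of 4.46, against a median of 4.47 for the whole list. Of the Chd7 peaks, 9 of 11 in replicate 1 and 3 of 5 in replicate 2 overlapped a Chd8 peak, beside 78.8% and 62.2% of the whole lists. In return 10 of 30 Chd8 peaks overlapped a peak of either Chd7 library. Neither this share nor the shares by place were computed for the whole Chd8 list, so these counts have no background beside them. An input peak touched 5 of the 30 Chd8 peaks, where 46.3% of the Chd8 list touched an input, and 1 of 11 and 2 of 5 Chd7 peaks, where 38.8% and 62.2% of the lists did. Density was 20.7 Chd8 peaks per Mb in these windows against 15.0 in the windows of all genes, 7.61 against 3.85 for Chd7 replicate 1, and 3.46 against 5.28 for Chd7 replicate 2. Overlapping windows of all genes were each counted in full, so a peak shared by several windows counted several times. The inputs were sparser in these windows than in all windows, with 14.5 against 38.6 per Mb for input 1, 35.3 against 67.0 for input 2 and 33.2 against 50.7 for input 3.

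**Figure D3:**
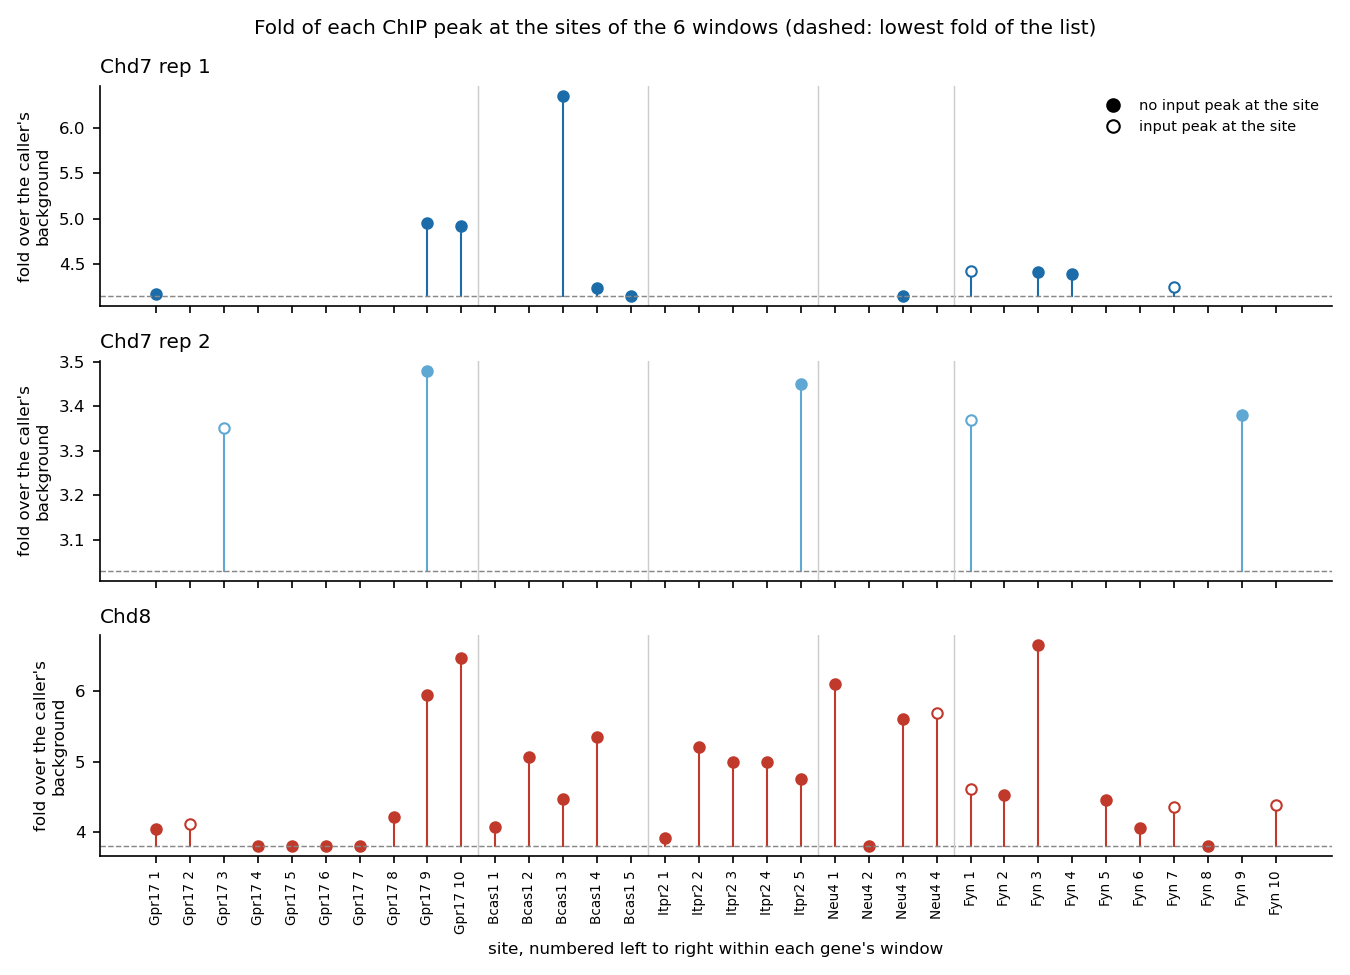
Fold of each ChIP peak over the caller's background at every site of the windows, numbered left to right, with 1 panel and 1 axis per library because folds are not comparable between libraries. Open circles mark sites where an input has a peak. Chd8 is highest at Fyn site 3 (6.65) and Gpr17 site 10 (6.47), and Chd7 replicate 1 at Bcas1 site 3 (6.35).

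The Chd8 counts stood differently against gene length. Gpr17 and Neu4, both under 8 kb, held 5 and 3 Chd8 peaks, where the median gene of 4.17 to 11.7 kb held none. Fyn and Bcas1 lay between the 90th and the 99th percentile of genes of their length class (10 classes of equal number), Neu4 at the 99th and Itpr2 at the 90th, Gpr17 was above the 99th, and Enpp6, with none, was below the median. Above the lowest fold Gpr17 held 2 Chd8 peaks, which 7.26% of genes of 0.5 to 2 times its length reached. Other listed genes were also above the 99th percentile of their class, among them Sox4 (4 peaks), Nkx2-2 (8), Cspg4 (6) and the astrocyte marker Slc1a3 (6). Lims2 (7) was too, but it spans Gpr17 and its peaks include the 5 counted for Gpr17.

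**Figure D4:**
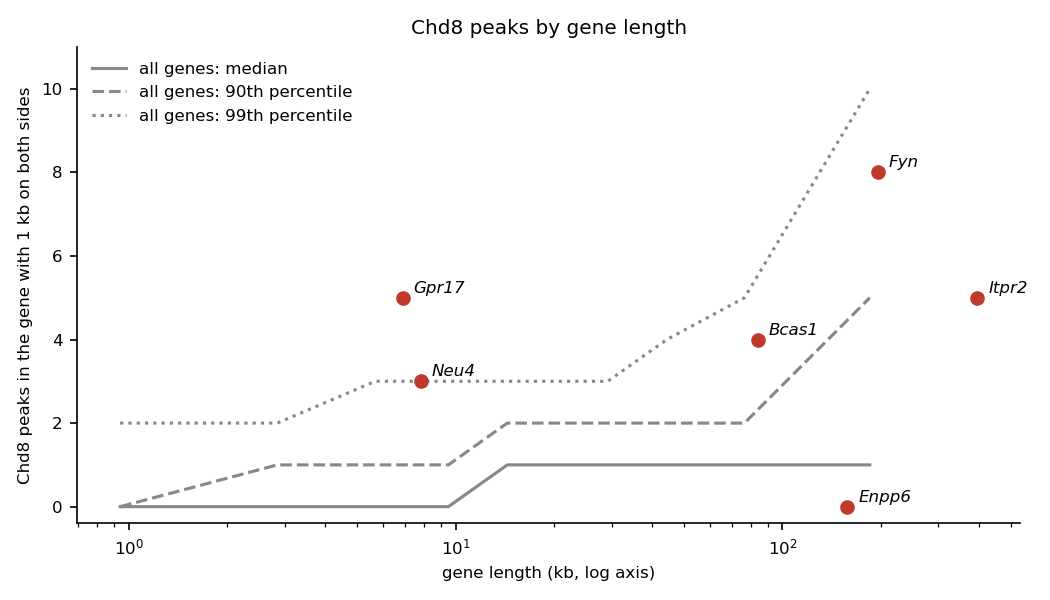
Chd8 peaks in each gene with 1 kb on both sides against gene length (log axis), for the 6 genes (red) and for all protein-coding genes in 10 classes by length, drawn at each class's median length (grey: median, 90th and 99th percentile). Gpr17 (5 peaks, 2 of them above the lowest fold of the list) lies above the 99th percentile line and Enpp6 (none) below the median line.

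Among 24 further genes of committed precursors and newly formed oligodendrocytes, 15 had Chd8 at an end (62.5%, 40.6 to 81.2, against 41.0% of all genes) and 2 had a reproducible Chd7 region (8.33%, 1.03 to 27.0, against 4.83%). They were Sirt2, a tubulin deacetylase of the myelin sheath, with Chd7 folds of 6.30 and 3.56 and a Chd8 fold of 5.21, and Rap2a, a small GTPase, with 5.44 and 4.11 and a Chd8 fold of 6.96. Cnksr3, a scaffold protein gene, had the next Chd8 fold, 4.84, without Chd7. At an end, 1 input had a peak at Sirt2 and 2 inputs at Rap2a and at Cnksr3. Input 3 also had a peak at 15 of the 24 genes, but at 2 of the 6 (45.2% of all genes).

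Among 18 partners of Fyn, Chd8 lay at an end of 12 (66.7%, 41.0 to 86.7, against 41.0% of all genes) and a reproducible Chd7 region at an end of 3 (16.7%, 3.58 to 41.4, against 4.83%). Input 3 had a peak at an end of 13 of the 18 (72.2%, against 45.2% of all genes). Arhgap35, which encodes a substrate of Fyn, had Chd7 folds of 5.24 and 3.26 and a Chd8 fold of 5.97. Cdc42, which encodes a regulator of the actin cytoskeleton, had 4.63 and 3.27 with Chd8 at 5.04 (2 inputs at an end, as at Arhgap35), and the integrin gene Itgb1 had 4.31 and 4.17 with Chd8 at 4.61 and a peak of all 3 inputs. Without a reproducible Chd7 region, the kinase gene Cdk5 had a Chd8 fold of 7.67 with Chd7 replicate 1 at 5.29 and 1 input. Hnrnpa2b1, which binds Mbp mRNA for transport, had 7.13, with Chd7 peaks of 4.37 and 3.62 that did not overlap and a peak of all 3 inputs. Among 16 genes of calcium release, Itpr2's pathway, 8 had Chd8 (interval 24.7% to 75.3%, against 41.0% of all genes) and 2 had reproducible Chd7 (12.5%, 1.55 to 38.3, against 4.83%). Input 3 had a peak at an end of 10 of the 16 (62.5%, against 45.2%). Calm3, a calmodulin gene, had a Chd8 fold of 10.91 with Chd7 folds of 4.99 and 4.29, and Ppp3ca, the catalytic subunit of calcineurin, had 5.42 with 4.29 and 3.16. Calm2, a second calmodulin gene, had a Chd8 fold of 6.47 with no Chd7. Inputs had a peak at an end of each of these genes, 2 of them at Calm3, 3 at Ppp3ca and 1 at Calm2.

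Of 28 paralogs, namely P2Y and cysteinyl leukotriene receptors, Enpp, Itpr and Neu family members and Src-family kinases, 9 had Chd8 at an end (32.1%, 15.9 to 52.4, against 41.0% of all genes). None had a reproducible Chd7 region or a peak of Chd7 replicate 1, which allows up to 12.3% by the exact interval, against 4.83% and 10.4% of all genes. Input 3 had a peak at 11 of the 28 (39.3%, against 45.2%). The highest Chd8 folds among them were 5.18 at Neu1, the lysosomal sialidase, 5.05 at Enpp5 and 4.66 at Enpp4. At an end, 2 inputs had a peak at Neu1 and at Enpp4 and 1 input at Enpp5, and Enpp4 also had Chd7 replicate 2 (3.23). Chd7 replicate 2 had a peak at an end of 3 of the 28 (17.0% of all genes). The intervals of the lists overlap, and no difference between lists was tested.

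**Figure D5:**
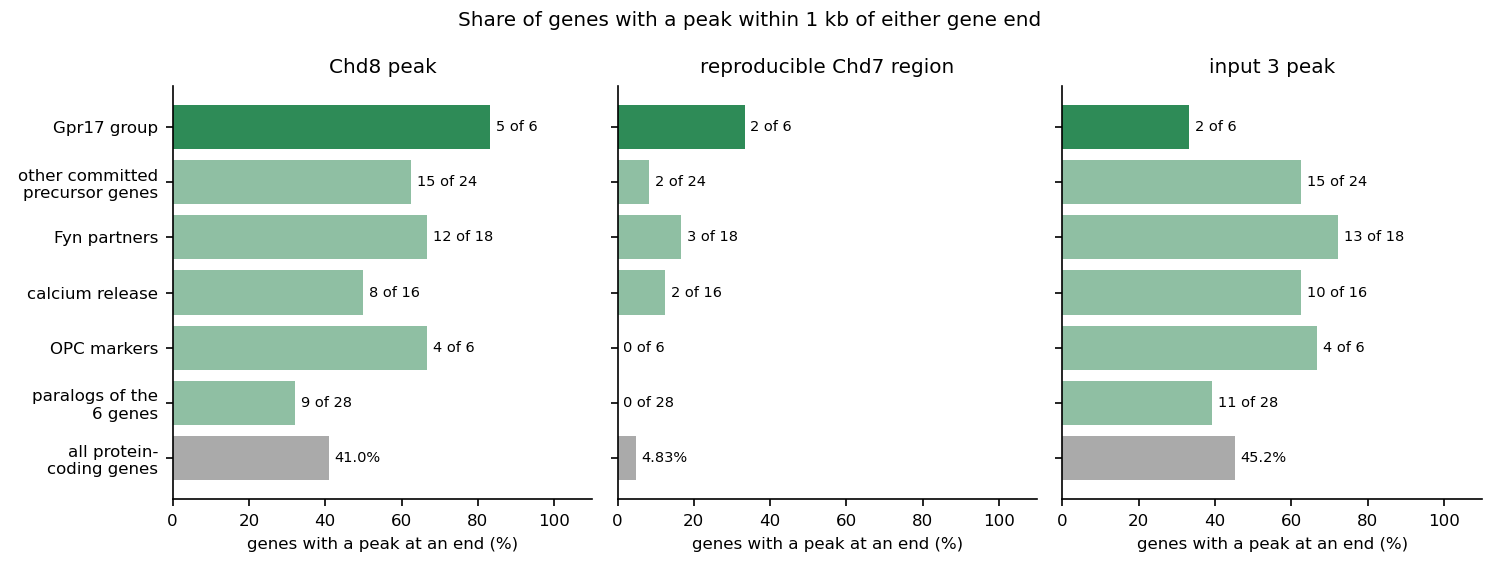
Percent of genes with a Chd8 peak, a reproducible Chd7 region or an input 3 peak within 1 kb of an end, by gene list, with counts beside the bars and all protein-coding genes at the bottom. The 6 genes have Chd8 at 5 and input 3 at 2, and their paralogs have Chd8 at 9 of 28 and no reproducible Chd7 region.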

How the data were processed

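Each library was deposited as a broad peak list on mm10. Per the submitters' processing notes the tools were Bowtie2, SAMtools, Picard and MACS; their versions and parameters, and which control each call used, are not stated. In the deposited lists a score per peak is 10 times the −log10 q, and further columns hold the fold ratio over the caller's local background and the −log10 p and −log10 q, all computed by the authors. The fold is the authors' own value for each peak, and peaks were ranked by it only within a list; 1 alternative kept peaks of fold 5 or more in every list, which takes a different share of each. Replicate numbers inside 2 files differ from the titles; titles and labelled controls were used. The extraction protocol names the O4 antibody for the pull-down, whereas the sample labels give the Chd7 and Chd8 antibodies, which were followed.

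ChIP peaks that touched a mock by 1 bp were removed. Reproducible Chd7 regions are merged spans of overlapping peaks of both libraries (1383 regions). Gene boundaries came from RefSeq (GRCm38.p6), without strand or exons; 17492 protein-coding genes, 4 of the 6 members among them, had a start in the promoter table. Overlaps were counted with Python 3.11.15 and numpy 2.4.6, intervals (Clopper-Pearson, 95%) with scipy 1.17.1, and the counting was tested on simulated peaks. Named were the 6 genes, neighbours with a ChIP peak at an end, and from each other list the genes with reproducible Chd7 and the 3 highest in Chd8 at an end, markers included. Lims2, the noncoding neighbours, Sox11, Midn, Sox4, Nkx2-2, Pdgfra, Cspg4 and Ptprz1 were named after their values were seen. The genes and lists were chosen with earlier results of these data known. Gene-list p-values were not computed.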

Additional observations from a re-analysis of the deposited data

How the results depend on the processing

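Of 68 recomputed summary counts, 43 stayed within 1.5 times the reported value. As reported, 5 genes had Chd8 and 2 reproducible Chd7 at an end, the same 5 and 2 had them in the window, and the windows held 30 Chd8 and 16 Chd7 peaks. At −log10 q ≥ 5 these 6 counts were 2, 0, 3, 0, 4 and 1. With a fold of at least 5 they were 2, 0, 5, 0, 10 and 1. Equal numbers of highest-fold peaks left Chd8 at the ends of 2 genes, Gpr17 and Neu4, and 11 Chd8 peaks. Removing peaks of the matching input, of any input, or of inputs 2 and 3 exchanged (chosen after the data were seen) left reproducible Chd7 at 1 gene, Gpr17, at its end and in its window, since the Fyn peaks touch all inputs. A reciprocal overlap of 50% left it at 0 genes in either zone, since the replicate peaks overlap only in part. Annotated starts, known for 4 genes, gave 3 genes with Chd8 and 1 with Chd7. Single Chd7 libraries gave 3 to 3 genes at an end, 3 to 4 in the window and 5 to 11 peaks. Flanks of 10 or 100 kb gave the same 5 and 2 genes in number. No paired analysis was possible because the results come from no test. Unknown depth limits every statement that a peak is missing.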

Other observations

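Apart from Gpr17, the genes of 0.5 to 2 times its length with at least 5 Chd8 peaks in the body with 1 kb were Sox11, a transcription factor gene of neural progenitors, with 5 peaks over 8.45 kb, and Midn, with 5 peaks over 12.4 kb. Among the precursor markers, Chd8 lay at an end of Olig2 with fold 5.34, Olig1 with 4.57 and Sox10 with 4.53, each with Chd7 replicate 2 (3.08, 3.62 and 3.08) and without Chd7 replicate 1, and 1 input had a peak at an end of each. Pdgfra had Chd8 at an end with fold 4.25, without Chd7 or input. Cspg4 and Ptprz1 had no ChIP peak at an end. Slc1a3, an astrocyte glutamate transporter, held 6 Chd8 peaks in its body with 1 kb, the highest at an end with fold 4.29, with no Chd7 and 1 input at an end. Aldoc, an astrocyte aldolase gene, had 4.07 at an end, with no Chd7 and 1 input. Among neuron markers Chd8 lay at an end of Snap25 with fold 5.26, Gad1 with 4.54 and Tubb3 with 4.33. Snap25 also had Chd7 replicate 2 (3.06) and all 3 inputs at an end, Tubb3 had 1 input and no Chd7, and Gad1 had neither.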
